A study of Mus musculus with 6 samples.

Results

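Cell cycle and DNA replication transcripts were followed in the soleus, a slow-twitch muscle of the calf, of hindlimb-suspended C57Bl/6 mice. They were the 8 genes, of 203 named on the array, whose annotated symbol is Cdkn1a, Rb1, Ccnd1, Cdk4, Ccna2, Pcna, Pole2 or Top2a, and each gene had 1 probe. Members were found by symbol alone. The 6 arrays, numbered 1 to 6 in their titles, all came from animals marked wt and suspended so that the hindlimbs bore no weight, and total RNA was taken from cryosections of the whole muscle. No loaded animals were analysed here, so the values describe unloaded muscle and not a change brought about by unloading. The age of the animals and the time under suspension are not spelled out in the labels, nor is it stated that each array had an animal of its own, so the spread between arrays may be partly technical.

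Cells enter the division cycle when D-type cyclins such as cyclin D1 (Ccnd1) activate the kinase Cdk4, which phosphorylates the retinoblastoma protein (Rb1) and releases E2F factors that switch on the genes for DNA synthesis. Cdkn1a encodes p21, an inhibitor of cyclin-dependent kinases that also binds the sliding clamp PCNA, and with Rb1 it acts as a brake. Cyclin A2 (Ccna2), the clamp (Pcna), a subunit of DNA polymerase epsilon (Pole2) and topoisomerase II alpha (Top2a) belong to DNA synthesis and to the later steps of the cycle. Muscle fibres are permanently out of the cycle, and the cells of a muscle that can divide are satellite cells and the cells of vessels, connective tissue and blood.

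Muscle fibre markers were detected on every array, which does not tell the soleus from other muscles. Median deposited intensities were 0.752 for Myh7, 0.708 for Myh1, 0.351 for Myh4 and 0.0719 for Myh2. Probes may differ in sensitivity, so these values were not read as proportions of fibre types. All 6 muscle fibre markers with a probe (Myh7, Myh1, Myh2, Myh4, Mb and Des) were above 0 on every array, with summed deposited intensities between 2.29 and 3.01 on replicates 2 to 6 and of 6.61 on replicate 1. Of markers of satellite cells and myoblasts, Myod1 and Myog were above 0 on every array and Myf5 on 4 of 6, and Pax7 had no probe. Without scaling between arrays, these 3 probes summed to 0.0101 on replicate 1, against 0.0063 to 0.0092 elsewhere. All 5 endothelial markers probed were above 0 on every array (sums from 0.0698 to 0.0871), while of the 3 immune genes probed Csf2rb2, a cytokine receptor chain, was above 0 on every array and Il6 and Il1b on 2 of 6 each. In bulk muscle, fewer cells of a type and less RNA per cell cannot be told apart.

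Replicate 1 stood apart: its intensities summed to 37.5, against 15.3 to 18.5 on the other 5 arrays. The median intensity of all probes differed less, at 0.0061 against 0.0036 to 0.0055. Among the 171 probes above 0 on all arrays, 67.3% had a value on replicate 1 that lay outside the range of the other 5 after each array was set to its own median. Results that rest on this array are therefore given with and without it.

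Both brakes and most of the proliferation genes were detected on every array, together at a share near that of all probes. A deposited value at or below 0 was taken as not detected. By this rule Cdkn1a and Rb1 (2 of 2 brakes) and 4 of 6 proliferation genes (Ccnd1, Cdk4, Pcna and Pole2) were detected on all 6 arrays, and Ccna2 and Top2a on 2 of 6 each. Over the whole array 76.7% of the probes met the rule, so the 6 of 8 genes lie near that share. Detection on at least 4 of 6 arrays was met by the same 6 genes and by 85.7% of all probes. A stricter rule asked each value to exceed its array's background measure, taken as the most negative value with its sign dropped, which ran from 0.0005 to 0.0020. Cdkn1a, Rb1 and Pole2 met it on all 6 arrays, which makes 2 of 2 brakes and 1 of 6 proliferation genes, against 60.1% of all probes. Cdk4 met it on all arrays when replicate 1 was left out, and Pcna when replicate 2 was left out, so that the count was 4 of 8 in both cases. No test was made of brakes against proliferation genes, since the array holds only 8 of these genes and a probe's own sensitivity bears on its detection.

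**Figure D1:**
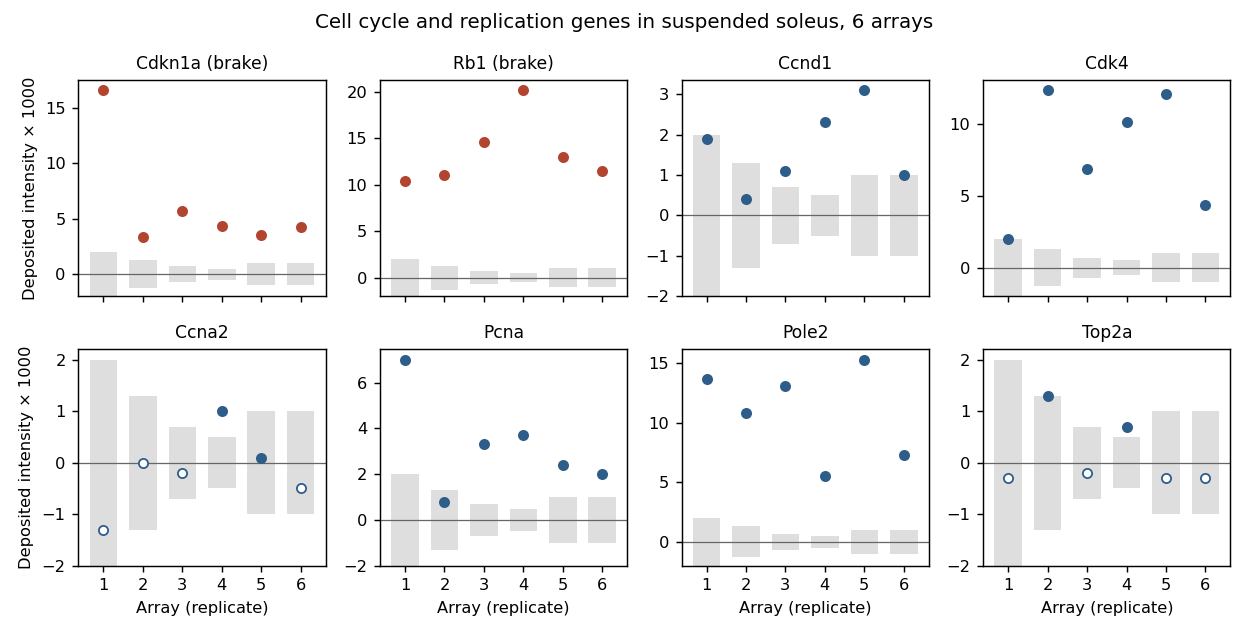
Deposited intensity, multiplied by 1000, of each gene (vertical axis, own scale per panel) on each of the 6 arrays (horizontal axis). Filled points are values above 0 and open points values at or below 0, red marks the brakes and blue the proliferation genes, and grey bars span each array's background measure on either side of 0. Cdkn1a, Rb1 and Pole2 lie above the grey on every array, and Ccna2 and Top2a are above 0 on 2 arrays each.

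Cdkn1a was high on a single array. Its deposited intensity ran from 0.0033 (replicate 2) through a median of 0.00425 to 0.0166 (replicate 1). Replicates 2 to 6 lay together between 0.0033 and 0.0057, and replicate 1 was 3.95 times their median. Relative to the array median on the log2 scale, where 0 is the median of the 171 probes above 0 on all arrays and 1 unit a factor of 2, its level was -0.71 ± 0.68 (SD, n = 6), and -0.96 ± 0.33 without replicate 1 (n = 5). The gene is shown with the bases before both of its start sites in RefSeq (GRCm38.p6), because a probe named only by gene does not tell which start was in use. Capitals mark CATGNNNNNNCATG, the paired core of binding sites of the stress-activated factor p53, in the first and the GC box GGGCGG in the second. Both strands were searched from 250 bases before to 50 after each start, and only the bases before the start are printed.
Cdkn1a start 1, chr17:29090729-29090978, plus strand: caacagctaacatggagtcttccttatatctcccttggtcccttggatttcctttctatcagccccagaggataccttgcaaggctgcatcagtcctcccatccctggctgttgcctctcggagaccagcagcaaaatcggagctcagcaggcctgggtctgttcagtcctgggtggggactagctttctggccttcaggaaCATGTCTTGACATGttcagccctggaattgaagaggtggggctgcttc
Cdkn1a start 2, chr17:29093519-29093768, plus strand: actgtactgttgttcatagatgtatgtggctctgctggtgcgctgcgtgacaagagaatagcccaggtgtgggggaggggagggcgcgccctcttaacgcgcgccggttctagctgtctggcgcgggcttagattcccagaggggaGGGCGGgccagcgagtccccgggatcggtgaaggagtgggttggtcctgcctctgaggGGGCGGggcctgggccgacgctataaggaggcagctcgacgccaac
The p53 core pair lies 48 to 35 bases before start 1 and was found in 0.712% of the 32851 promoters of that length in the table. GGGCGG occurs at 2 places before start 2 and was found in 35.7% of promoters. Such matches are letters in a window and do not show binding.

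Rb1 was the steadiest of the 6 genes detected on all arrays on the linear scale, with a highest value 1.94 times its lowest. Its deposited intensity ran from 0.0104 (replicate 1) through a median of 0.01225 to 0.0202 (replicate 4). Unlike Cdkn1a, it was lowest on replicate 1, and the other arrays lay between 0.0110 and 0.0202. Its level relative to the array median was 0.62 ± 0.41 (SD, n = 6) and 0.78 ± 0.18 without replicate 1 (n = 5). With arrays set to equal totals in place of equal medians, the SD over 6 arrays was 0.67.

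The kinase pair of the G1 phase, cyclin D1 and Cdk4, differed in how far it rose above background. Ccnd1 met the stricter rule on 3 of 6 arrays and Cdk4 on 5 of 6. Its deposited intensity ran from 0.0004 (replicate 2) through a median of 0.0015 to 0.0031 (replicate 5). On replicates 1, 2 and 6 it was not above the background measure. The deposited values have steps of 0.0001, so that the lowest is only 4 steps above 0. Its level was -2.66 ± 0.94 (SD, n = 6), and the SD was 0.61 without replicate 2 and 1.05 without replicate 1.

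Cdk4 spanned a factor of 6.2. Its deposited intensity ran from 0.0020 (replicate 1) through a median of 0.00855 to 0.0124 (replicate 2). Replicate 1 was the only array on which it did not exceed the background measure, and the others lay between 0.0044 and 0.0124. The level was -0.34 ± 1.18 (SD, n = 6) and 0.10 ± 0.55 without replicate 1 (n = 5). Its level on replicate 1 minus the mean over replicates 2 to 6 was -2.62 in log2 units, a size that rests on a value at the background measure. Its promoter is shown for the E-box CACGTG (capitals), the core bound by Myc-type factors.
Cdk4, chr10:127063285-127063534, plus strand: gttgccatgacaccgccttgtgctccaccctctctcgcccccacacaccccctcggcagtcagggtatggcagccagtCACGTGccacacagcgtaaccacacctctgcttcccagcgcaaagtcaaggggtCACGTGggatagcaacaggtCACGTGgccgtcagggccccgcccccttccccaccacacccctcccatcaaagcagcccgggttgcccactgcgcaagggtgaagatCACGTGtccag
The motif occurs at 4 places, from 172 to 6 bases before the start. At least 1 such E-box was found in 7.15% of the promoters in the table and at least 3 in 0.0883%.

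Of the replication genes proper, Pole2 was well above background and Pcna close to it on 1 array. Pole2, the accessory subunit of the polymerase that copies the leading strand, had a deposited intensity from 0.0055 (replicate 4) through a median of 0.01195 to 0.0153 (replicate 5). Replicates 4 and 6 were low and the other 4 arrays lay at or above 0.0108. Its level was 0.28 ± 0.60 (SD, n = 6), and the SD was 0.30 without replicate 4. Its promoter was the only one of those searched with an E2F site (TTTGGCGC, TTTCCCGC, TTTGCCGC or TTTCGCGC on either strand), which was found in 2.26% of all promoters. It reads GCGCCAAA on the gene's strand and lies 11 to 18 bases into the transcript.

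Pcna, the clamp that holds polymerases on DNA, spanned a factor of 8.75 in deposited intensity, its lowest value being within background. Its deposited intensity ran from 0.0008 (replicate 2) through a median of 0.00285 to 0.0070 (replicate 1). Replicates 3 to 6 lay between those extremes, from 0.0020 to 0.0037. The level was -1.70 ± 0.84 (SD, n = 6), and the SD was 0.42 without replicate 2 and 0.77 without replicate 1. On replicate 2 it was not above the background measure. Its promoter is shown with the GC box GGGCGG in capitals. This motif was in the window of at least 1 start of every gene searched, with 3 matches for Cdk4, 2 for Pole2 and 1 for Top2a.
Pcna, chr2:132253181-132253430, minus strand: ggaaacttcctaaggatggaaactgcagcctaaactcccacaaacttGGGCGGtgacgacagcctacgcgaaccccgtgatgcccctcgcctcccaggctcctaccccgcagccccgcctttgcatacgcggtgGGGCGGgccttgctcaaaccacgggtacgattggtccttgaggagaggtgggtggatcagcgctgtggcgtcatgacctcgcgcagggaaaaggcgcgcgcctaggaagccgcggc
Besides the 2 GC boxes it holds 1 CCAAT box (as ATTGG), and the p53 core pair was not among its letters.

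The genes of the S and G2 phases, Ccna2 and Top2a, were not detected on most arrays. Ccna2 had deposited values of -0.0013, 0, -0.0002, 0.0010, 0.0001 and -0.0005 on replicates 1 to 6. It was above 0 on replicates 4 and 5, and on replicate 4 alone above the background measure. Top2a had values of -0.0003, 0.0013, -0.0002, 0.0007, -0.0003 and -0.0003 on replicates 1 to 6. It was above 0 on replicates 2 and 4, and above the background measure on replicate 4, where the most negative value was the smallest in size, at 0.0005. No level or spread was computed for these genes, and a value at background does not show that the transcript was absent. All 8 genes exceeded the background measure on replicate 4, as did 86.5% of all probes, and between 4 and 6 of them on the other arrays, where 66.8% to 75.3% of all probes did. The Top2a promoter is shown with CCAAT boxes (CCAAT or ATTGG) and the CHR element TTTGAA (or TTCAAA) in capitals, motifs known from genes that are switched on late in the cycle and held off in resting cells.
Top2a, chr11:99024190-99024439, minus strand: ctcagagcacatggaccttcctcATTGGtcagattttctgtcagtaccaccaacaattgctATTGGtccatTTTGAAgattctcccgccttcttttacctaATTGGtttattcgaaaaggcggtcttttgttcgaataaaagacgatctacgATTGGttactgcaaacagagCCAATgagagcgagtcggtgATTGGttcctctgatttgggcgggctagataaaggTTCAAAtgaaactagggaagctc
It holds 6 CCAAT boxes and 2 CHR letter runs, the nearer of which lies 23 to 18 bases before the start. At least 3 CCAAT boxes were found in 3.37% of promoters and at least 1 TTTGAA in 17.9%. RefSeq promoters were found for 5 of the 8 genes, and those of Rb1, Ccnd1 and Ccna2 were not used here.

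The genes detected on all arrays varied more between arrays than the middle of the array's probes. The SD of the level was above the median SD of the 171 probes, 0.48, for 5 of 6 genes, where 49.7% of the probes lie above it, and Rb1 was the exception. The median SD was 0.76 for the 6 genes. Without replicate 1 the number was 4 of 6. Part of the probes' spread went with low level: when the 171 probes were cut into 4 groups by mean level, the median SD was 0.77 in the lowest group of 43, which holds Ccnd1 and Pcna, and between 0.39 and 0.43 in the others. Cdkn1a and Cdk4, in the next group, had SDs of 0.68 and 1.18 against a group median of 0.39. Without replicate 1, and with array medians taken anew, these SDs were 0.34 and 0.55 against 0.31. For each gene the SD fell by more than 1.5 times without 1 array, picked as the one with the largest fall. This was replicate 1 for Cdkn1a (0.34), Rb1 (0.17) and Cdk4 (0.55), replicate 2 for Ccnd1 (0.61) and Pcna (0.42), and replicate 4 for Pole2 (0.30). Here the array medians were taken anew over the remaining arrays. Leaving out the farthest array tends to lower any SD, and the share of all probes with such a fall was not computed. It is therefore not read as a trait of these genes. The median SD of the 171 probes was 0.34 without replicate 1, with the medians of the 6-array scaling kept.

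**Figure D2:**
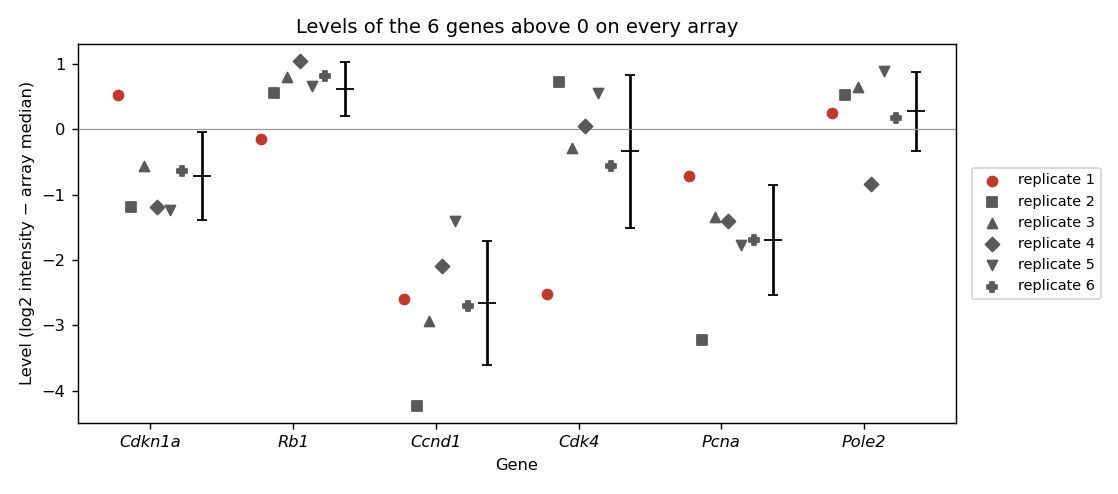
Level of the 6 genes detected on all arrays, as log2 intensity minus the array median (vertical axis), by gene (horizontal axis). Each symbol is 1 array, red is replicate 1, and the bar at the right of each gene gives the mean and SD over the 6 arrays. Replicate 1 is highest for Cdkn1a and Pcna and lowest for Rb1 and Cdk4.

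On replicate 1 about as large a share of these genes as of all probes lay outside the range of the other arrays. The difference of its level from the mean of replicates 2 to 6 was 1.49 for Cdkn1a and 1.17 for Pcna in log2 units. It was -0.92 for Rb1 and -2.62 for Cdk4, and 0.07 for Ccnd1 and -0.03 for Pole2. Cdkn1a and Pcna lay above all other arrays, as did 39.2% of the 171 probes, and Rb1 and Cdk4 below all others, as did 28.1%. The 4 of 6 genes outside the range thus compare with 67.3% of all probes. The median difference of all probes depended on the scaling and went from 0.65 without scaling through 0.13 with equal medians to -0.45 with equal totals. Beyond that median, Cdkn1a was higher by 1.36 and Pcna by 1.05, and a scaling that shifts whole arrays cannot alter these values. With quantile normalization they were 1.43 and 1.17, and Rb1 and Cdk4 were lower there too. With equal totals Pcna no longer lay above all other arrays.

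Several other values moved with replicate 1. The summed deposited intensity of 3 fibroblast probes, which stand for 2 genes, was 0.0365 on replicate 1 against 0.0130 to 0.0218 elsewhere. Such sums are not scaled between arrays, and all probes summed to 37.5 on replicate 1 against 15.3 to 18.5 elsewhere. The median intensity of all probes was 0.0061 on replicate 1 against 0.0036 to 0.0055 elsewhere. The endothelial sum on replicate 1, 0.0711, lay within the range of the others, and that of satellite cells was 0.0101 against 0.0063 to 0.0092. As levels, replicate 1 minus the mean of the others was -2.60, -0.63 and -0.57 for the endothelial genes Flt1, Pecam1 and Cdh5. It was -0.12 for Kdr and 0.14 for Tek, also endothelial, and -0.02 for Myod1 and -0.35 for Myog. The median over all 171 probes was 0.13. Of the immune genes, Csf2rb2 was at 0.0047 on replicate 1 against 0.0154 to 0.0358 elsewhere, while Il6 and Il1b did not exceed the background measure on any array. The probes of Cdkn1a, Pcna and Rb1 carry the successive names 17F, 17G and 17H. The labels do not say whether these names are positions on the array. For each name, the measured probes 1 step away in number, letter or both were taken, leaving out probes of the 8 genes. Over the 7 such probes around 17F the median difference of replicate 1 from the other arrays was 0.88, from -0.04 to 1.61. Over all 171 probes it was 0.13. Over the 6 such probes around 17G it was 0.37, from -1.02 to 0.98, and over the 7 around 17H, the probe of Rb1, -0.04, from -1.27 to 0.65. The part of cell makeup and of probe position in the values of Cdkn1a and Pcna was not tested.

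Ratios of 2 probes on the same array do not depend on the scaling of arrays. The ratio of Cdkn1a to Cdk4 varied widely, as did ratios of Cdk4 with some proliferation genes. Cdkn1a over Cdk4 was 8.3 on replicate 1 and 0.266, 0.826, 0.422, 0.289 and 0.955 on replicates 2 to 6. The value of Cdk4 on replicate 1 was not above the background measure, so the sizes that include this array are uncertain. The ratio spanned a factor of 31.2 with all arrays and of 3.59 without replicate 1. The SD of its log2 value was 1.84, larger than in 96.2% of the 14535 probe pairs, and 0.85 without replicate 1, larger than in 79.3%. Pairs without a brake also varied widely: Cdk4 over Pcna spanned a factor of 54.25 (log2 SD 1.89) and Ccnd1 over Cdk4 of 29.45 (1.57). Without replicate 1 these factors were 7.41 and 7.94. An end of each span lies on replicate 2, where neither Pcna nor Ccnd1 was above the background measure. Ccnd1 was not above it on replicate 1 either, so these sizes are uncertain too. Cdk4 over Pole2 had a log2 SD of 1.25 and Rb1 over Cdk4 of 0.92. Cdkn1a over Pcna was 2.37 on replicate 1 and 4.13, 1.73, 1.16, 1.46 and 2.1 on replicates 2 to 6. The ratio on replicate 1 was thus above those on replicates 3 to 6. That on replicate 2 is uncertain, since Pcna was not above the background measure there. The log2 SD of Cdkn1a over Pcna was 0.64 against a median of 0.73 over all pairs. Without replicate 1 its SD was 0.70 against 0.53, larger than in 68.5% of pairs. Rb1 over Cdk4 was 5.2 on replicate 1, against 0.887 to 2.61 elsewhere. A ratio of different probes is read here only for how it varies between arrays, since its size depends on the probes.

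**Figure D3:**
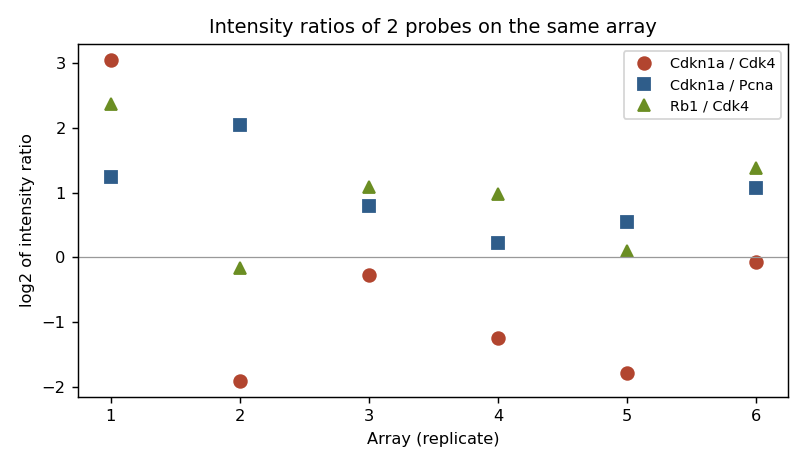
Log2 ratio of deposited intensities of 2 probes on the same array (vertical axis) for the 6 arrays (horizontal axis), for Cdkn1a over Cdk4 (circles), Cdkn1a over Pcna (squares) and Rb1 over Cdk4 (triangles). The ratio of Cdkn1a over Cdk4 is 8.3 on replicate 1, where Cdk4 was not above the background measure, and below 1 on the other arrays. That of Cdkn1a over Pcna is highest on replicate 2, where Pcna was not above the background measure, and next highest on replicate 1.

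Correlations over the 6 arrays were computed for all 15 pairs of the 6 genes, to see whether brakes and proliferation genes varied together. Of these, 6 were above 0 and 9 below. Among the 8 pairs of a brake with a proliferation gene 4 were above 0 and 4 below, and over all 14535 probe pairs 50.9% were above 0. The strongest by Pearson's r was between Cdkn1a and Cdk4, with r = -0.97 (exact permutation p = 0.0125) and Spearman's rho = -0.77 (exact permutation p = 0.10). By rho the strongest was between Cdk4 and Pcna, at -0.83. Adjusted by Benjamini-Hochberg over all probe pairs, the exact permutation p of Cdkn1a and Cdk4 was 0.35 for r and 0.65 for rho. An unadjusted exact p at or under 0.05 was reached by 1 of the 15 pairs for r and 11.9% of all pairs, and by 0 of 15 for rho and 5.88% of all pairs. After adjustment 0 of the 14535 pairs passed by either measure, and in simulated data 0% of pairs made with a correlation of 0.99 passed, so that the lack of calls says nothing about single pairs. For Cdkn1a and Cdk4 r was -0.82 without replicate 1 and -0.88 without the 2 arrays farthest from the median of Cdkn1a (replicates 1 and 3).

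Of the other pairs with r beyond 0.6 in size, 3 turned sign when a single array was left out and 2 did not. Pcna and Cdk4 had r = -0.75 (exact permutation p = 0.13, adjusted 0.50) and rho = -0.83 (exact p = 0.058, adjusted 0.59), with r = -0.66 without replicate 1 and -0.30 without replicates 1 and 2. Cdkn1a and Pcna had r = 0.67 (exact permutation p = 0.17, adjusted 0.54) and rho = 0.71 (exact p = 0.14, adjusted 0.68), with r = 0.44 without replicate 1 and 0.24 without replicates 1 and 3. The brakes had r = -0.79 with each other (exact permutation p = 0.10, adjusted 0.47) and rho = -0.37 (exact p = 0.50, adjusted 0.88), and r was 0.19 without replicate 1 and 0.18 without replicates 1 and 3. Rb1 and Cdk4 had r = 0.73 (exact permutation p = 0.15, adjusted 0.51) and rho = 0.03 (exact p = 1, adjusted 1), with r = -0.64 without replicate 1 and -0.96 without replicates 1 and 4. Ccnd1 and Pcna had r = 0.62 (exact permutation p = 0.21, adjusted 0.57) and rho = 0.14 (exact p = 0.80, adjusted 0.96), with r = -0.42 without replicate 2 and 0.0078 without replicates 2 and 5. Of the 15 pairs, 3 changed sign when replicate 1 was left out, the brakes, Rb1 with Cdk4 and Rb1 with Pcna. Rb1 and Pcna had r = -0.27 (exact permutation p = 0.51, adjusted 0.80) and rho = -0.03 (exact p = 1, adjusted 1), with r = 0.82 without replicate 1 and 0.87 without replicates 1 and 4.

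**Figure D4:**
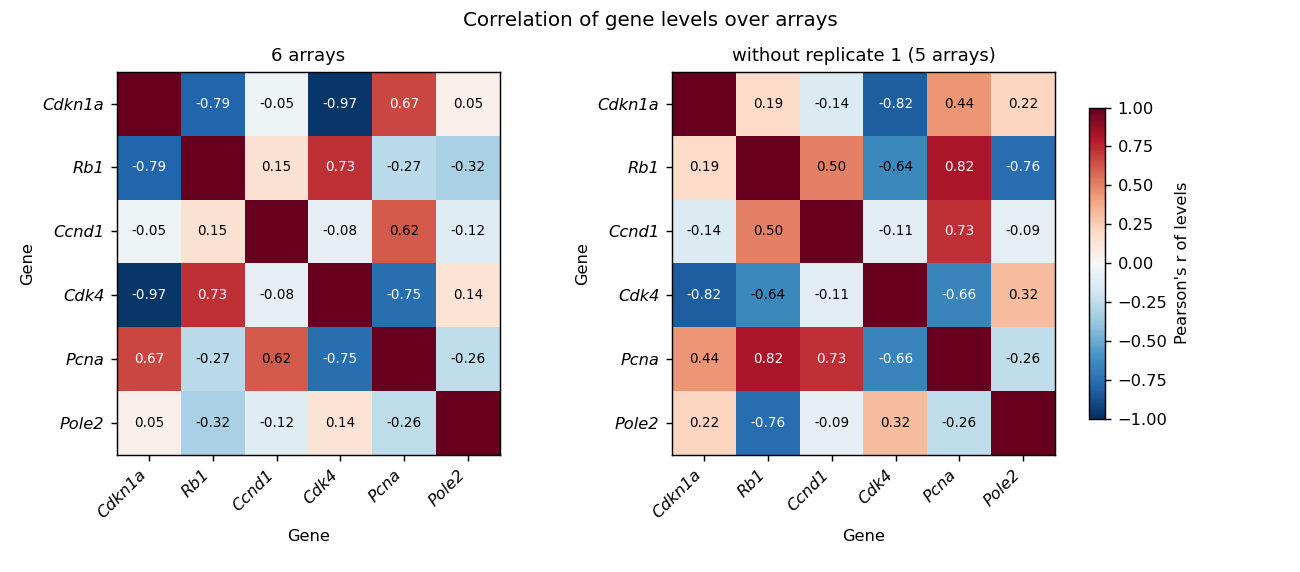
Pearson's r of the levels of each pair of the 6 genes (rows and columns), over 6 arrays at the left and over 5 arrays, without replicate 1, at the right. The colour runs from -1 (blue) to 1 (red). Cdkn1a and Cdk4 are at -0.97 and -0.82, while Cdkn1a and Rb1 go from -0.79 to 0.19.

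Other cell cycle and replication genes were on the array in small number, 6 of a list of 67. Of these, 4 were above 0 on every array and 3 above the background measure, beside 76.7% and 60.1% of all probes. The 4 above 0 were Cdkn2d, an inhibitor of Cdk4, at a level of -1.41 ± 0.57 (SD, n = 6), Pold1, the catalytic subunit of DNA polymerase delta, at -0.42 ± 0.46, Top1, topoisomerase I, at -1.58 ± 0.42, and Pola1, the catalytic subunit of the polymerase that starts new strands, at -1.62 ± 1.02. The SD of Pola1 was 0.60 without replicate 1, on which it had its lowest value of 0.0011. Cdk5, a kinase best known from neurons, was above 0 on 4 arrays, and the probe annotated as POLB was at or below 0 on every array. Named after their values were seen, Ccna1, Rpa2, Top3a and Top3b were above the background measure on all 6 arrays. Ccna1, a second cyclin A best known from germ cells, was at 1.88 ± 0.69 (SD, n = 6), with deposited intensities from 0.0182 to 0.0462, whereas the Ccna2 probe was at or below 0 on 4 arrays. How the probes compare in sensitivity is not known here, and the 2 cyclin A probes were therefore not ranked.

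Growth-response transcription factors, which act upstream of the cycle, had 6 of 24 listed genes on the array. Of these, 4 were above the background measure on all 6 arrays, beside 60.1% of all probes. Jun was at 2.44 ± 0.37, Srf at 1.64 ± 0.89, Fosl2 at 0.60 ± 0.20 and Jund at -0.56 ± 0.88 (SD, n = 6 each). Jund was 1.97 higher on replicate 1 than the mean of the others, and its SD was 0.39 without that array. Fosl1 was above 0 on 4 arrays and Junb on 3.

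The probes whose levels ran most like each gene over the arrays were picked by the smaller of Pearson's r over 6 arrays and r without replicate 1, among 159 other named probes. All these probes share the arrays and their scaling, so the values are descriptions. For Cdkn1a they were Thbs1, the matrix protein thrombospondin 1 (r = 0.99, and 0.96 without replicate 1), and the ribosomal protein gene Rps29 (0.92 and 0.97). For Cdk4 they were the growth factor Igf2 (0.97 and 0.97) and Nos2, the inducible nitric oxide synthase (0.96 and 0.92). For Pcna they were the myogenic factor Myf6 (0.94 and 0.96) and the fatty acid dehydrogenase Acadl (0.90 and 0.91). Ccnd1 ran most like Vegfc, a lymphatic growth factor (0.89 and 0.93), and Myod1, the myoblast determination factor (0.89 and 0.88). For Rb1 they were the laminin chain Lamb3 (0.82 and 0.83) and the growth factor Vegfd (0.92 and 0.76), and for Pole2 they were Top1 (0.84 and 0.88) and the 28S ribosomal RNA probe Rn28s1 (0.66 and 0.84). Lamb3 exceeded the background measure on replicate 4 alone. Vegfc did not exceed it on replicates 1 and 2, nor Nos2 on replicate 1, so these likenesses rest in part on values within background. With Spearman's rho in place of r, and with array medians taken anew over the 5 arrays, 3 of the 12 choices remained: Thbs1, Vegfc and Top1.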

How the data were processed

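RNA of 6 suspended soleus samples was measured on 6 arrays. The deposited table holds 1 linear intensity per probe and array. Per the values of the deposited table, background had been subtracted, since 171 of its 1338 values lie at or below 0. The array maker, the scanner, the background method and the scaling reference are not stated in the labels, and the number of arrays limits the precision. GEO's annotation of the platform named the probes and gives exactly 1 symbol to 205 probes, while 18 without exactly 1 symbol were left unnamed.

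Probes above 0 on all 6 arrays (171) were put on the log2 scale with no pseudocount, and each array's median over them was subtracted. Correlations over arrays were tested with all 720 orders of the arrays, two-sided, and adjusted by Benjamini-Hochberg over all 14535 probe pairs at 0.05. In simulated data of 171 probes the test gave an unadjusted p at or under the threshold for 79.2% of pairs made with a correlation of 0.9. Named genes were the 8 genes, the probed members of the lists, and 2 genes most alike per gene. The genes and lists were chosen with earlier results of these data known. Alternatives were scaling by equal totals, no scaling, quantile normalization, no filter, leaving out the lowest 25% of probes by level, another detection rule, Spearman's rho, and leaving out each array. Promoters are RefSeq's on GRCm38.p6. Python 3.11.15, NumPy 2.4.6 and pandas 2.3.3 were used.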

Additional observations from a re-analysis of the deposited data

Results flagged for a closer look

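Of 60 sets of 6 values that were checked, 8 had a highest or lowest array set apart beyond the critical value of Dixon's ratio, which chance gives in about 1 group in 20. In each of them the lone array was replicate 1. Among all 171 probes the share was 15.8%. The deposited intensity of Cdkn1a had a ratio of 0.820, its log2 intensity ratio to Rb1 of 0.699 and its log2 intensity ratio to Cdk4 of 0.629. The level of Jund had a ratio of 0.660 and that of Nos2 of 0.856. The deposited value of Nos2 on replicate 1 was 0.0001, a single step above 0 and within background, so the size of its gap is uncertain. The summed intensities of the muscle fibre, fat cell and fibroblast markers had ratios of 0.833, 0.812 and 0.626. These sums were not scaled between arrays, and the total of all probes was also highest on replicate 1. The fat cell list had 1 probe, Fabp4. The level of Cdkn1a after scaling to the array median was just under the critical value, at 0.620.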

How the results depend on the processing

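Of the 8 genes, 6 were above 0 on all arrays, a count that neither leaving out 1 array nor asking for 4 of 6 arrays could have lowered. With the background measure as the bound the number was 3, and without 1 array (an alternative chosen after seeing the data) between 3 and 4. The number of genes with an SD above the median was 5, between 4 and 5 with 1 array left out, and 3 after the lowest 25% of probes by level were left out, Ccnd1 and Pcna among them. No pair passed after adjustment under any setting. The correlation of Cdkn1a and Cdk4 stayed between -0.98 and -0.89 under other settings and between -0.99 and -0.82 with 1 array left out (adjusted exact permutation p from 0.25 to 0.84). Among the 6 pairs with r beyond 0.6 in size, signs turned for Cdkn1a and Rb1 (0.19) and for Rb1 and Cdk4 (-0.64) without replicate 1, and for Ccnd1 and Pcna (-0.42) without replicate 2. Of 12 genes chosen as most alike, 3 were chosen with Spearman's rho. Mean levels moved by more than 1 SD in 7 cases, all with another set of probes behind the array median; equal totals and no scaling leave the means as they are by construction. With each array left out in turn, the correlations ran from -0.89 to 0.19 for Cdkn1a and Rb1, from -0.64 to 0.86 for Rb1 and Cdk4 and from -0.42 to 0.86 for Ccnd1 and Pcna. No paired analysis was possible because all arrays belong to 1 group. Values close to the array's most negative value, those of Ccnd1, Ccna2 and Top2a above all, limit what these intensities can show.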
